A study of Mus musculus with 3 samples.

Results

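The immediate early genes described here are Fos, Fosb, Jun, Junb, Jund, Egr1, Atf3, Klf2, Klf4 and Dusp1, 10 of the 31053 genes measured. They were chosen by name, with earlier results of these data known, and are followed over the clusters that the authors deposited for each cell. Immediate early genes are transcribed soon after a stimulus, before new protein is made, and many code for transcription factors. Fos and Fosb pair with Jun, Junb or Jund to form the factor AP-1. Egr1 is a zinc-finger factor of growth signalling and Atf3 a stress-induced factor of the CREB family. Klf2 and Klf4 are zinc-finger factors known in endothelium for their response to flow. Dusp1 is a phosphatase that switches off MAP kinases, the kinases that induce many of these genes. Warm enzymatic digestion of tissue is known to switch on immediate early genes in many cell types.

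RNA and surface antibodies were read from single cells by CITE-seq in 4 brains of female C57BL/6 mice aged 2 to 3 months. The metastasis group was 2 brains that had carried tumours of E0771, a mouse mammary carcinoma line, for about 2 weeks after carotid injection, and the naive group was 2 brains without metastases. All brains were digested with papain, enriched on Percoll for mononuclear cells, stained with a hashing antibody each and pooled into 1 library. The labels do not state whether the brains were handled on separate days, so a p-value here covers no more than the spread among 4 suspensions.

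The metastasis brains held 5360 and 6174 cells with medians of 7294 and 7707.5 UMIs (unique molecular identifiers, counts of distinct RNA molecules), against 572 and 315 cells with medians of 1393.5 and 1230 in naive brains. Clusters 0, 1, 3 and 4, for which no marker of any cell type list passed, held 7772 cells (67.4%) of metastasis brains and 88 cells (9.92%) of naive brains. The naive group thus held cells of the clusters that made up most of the metastasis group. Of the 13 deposited clusters, 8 had at least 10 cells in every brain and were tested. Cluster 6 was endothelial-like (10 of 10 endothelial markers, led by Cldn5), cluster 11 mural-like (6 of 10 markers, with Tagln, Acta2, Myh11 and Rgs5 among its leading genes), and clusters 7 and 9 choroid plexus-like (9 of 10 markers each). Cluster 12 had 11 of 11 microglial markers, but the neutrophil genes S100a9, S100a8, Camp and Ngp were among its 10 leading genes, so it is called by its number. Cluster 8 mixed T cell, NK cell and MHC class II genes, and cluster 10 was led by Lyz2, Plac8 and Saa3, and both are also called by number. Cluster 2 had 9 of 11 monocyte or macrophage markers, led by Lyz2, with 4 neutrophil and 3 microglial markers. It had 5 cells in naive brain 2, was not tested and is called by number.

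The promoters were searched for the letters of known regulatory sites. RefSeq (GRCm38.p6) gave the 250 bases before the transcription start of 9 of the 10 genes, all but Egr1. The next lines print 4 of them, Fos for its AP-1 role, Jun and Klf2 for a site of the MEF2 factors, and Dusp1 for a full CREB/ATF palindrome, each 5′ to 3′ on the strand of its gene. Capitals mark TGACG, the core of the CREB/ATF site, on either strand, and the MEF2 site.
Fos: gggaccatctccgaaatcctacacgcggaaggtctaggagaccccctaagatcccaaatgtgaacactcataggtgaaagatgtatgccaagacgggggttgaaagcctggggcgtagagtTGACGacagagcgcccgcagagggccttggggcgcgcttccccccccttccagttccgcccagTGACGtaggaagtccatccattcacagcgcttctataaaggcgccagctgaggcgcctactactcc
Jun: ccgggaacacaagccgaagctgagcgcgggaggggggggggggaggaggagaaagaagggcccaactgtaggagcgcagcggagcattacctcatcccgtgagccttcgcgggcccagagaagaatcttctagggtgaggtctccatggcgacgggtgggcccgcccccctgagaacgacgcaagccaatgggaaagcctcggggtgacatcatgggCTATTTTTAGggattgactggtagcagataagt
Klf2: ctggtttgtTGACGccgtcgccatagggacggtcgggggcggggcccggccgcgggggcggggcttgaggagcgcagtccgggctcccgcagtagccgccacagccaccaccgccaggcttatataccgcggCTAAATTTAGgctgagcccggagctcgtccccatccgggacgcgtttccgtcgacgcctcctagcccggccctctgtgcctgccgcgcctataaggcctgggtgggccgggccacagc
Dusp1: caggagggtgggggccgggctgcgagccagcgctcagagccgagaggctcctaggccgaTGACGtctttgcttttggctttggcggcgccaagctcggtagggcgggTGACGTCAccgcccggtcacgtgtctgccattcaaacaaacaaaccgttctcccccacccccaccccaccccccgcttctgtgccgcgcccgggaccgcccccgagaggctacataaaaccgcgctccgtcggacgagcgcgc

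These stretches are Fos (chr12:85473640-85473889, plus strand), Jun (chr4:95052223-95052472, minus strand), Klf2 (chr8:72318812-72319061, plus strand) and Dusp1 (chr17:26508473-26508722, minus strand). TGACG was present on either strand in 7 of the 9 promoters, against 17.8% of 32851 mouse promoters of the same length, with matches at -129 and -66 in Fos and at -241 in Klf2. The MEF2 site was present in 3 of 9 (Jun at -33, Klf2 at -118 and Atf3 at -22), against 0.508% of all promoters. The palindrome TGACGTCA, which contains TGACG, was found in 1 of 9 (Dusp1 at -143), against 1.55%. GGGCGG, the letters of an Sp1-type GC box, were found in 7 of 9, against 32.7%, and the serum response element in 0 of 9, against 1.47%. Jund held none of the letters searched. Positions count from the transcription start to the first base of the match, and a match of letters is a description, not a shown site of binding.

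Cluster 12 had the highest level of every one of the 10 genes in metastasis brains (9 with cells thinned to 500 UMIs) and of 8 in naive brains, where Klf2 and Klf4 stood highest in the endothelial-like cluster 6. Levels are CPM (a gene's UMIs per 1000000 UMIs of the cluster in that brain), with the mean ± SD over brains (n = 2 each), and no test was made between clusters because the clusters were built from the same counts. In metastasis brains Fos averaged 1586 ± 383 in cluster 12, 1340 ± 11 in cluster 2, 744 ± 106 in cluster 6 and 581 ± 184 in cluster 9. It was lower in clusters 11 (307 ± 55.6), 8 (286 ± 30.6), 7 (247 ± 116) and 10 (168 ± 49.4), and lowest in cluster 5 (62.1 ± 7.65) and in the large clusters 3, 1, 0 and 4 (45.8 to 30.1). Neighbours in this order overlapped in mean ± SD (called within the spread of the next) for clusters 12 and 2, 6 and 9, and 11, 8, 7 and 10. In naive brains the order was cluster 12 (3790.4 ± 720.3), 11 (2867 ± 1492), 6 (2512 ± 403), 9 (708 ± 227), 7 (578 ± 144), 10 (286 ± 53.8), 8 (226 ± 56.1) and 1 (96.0 ± 117). Neighbours there overlapped in mean ± SD except clusters 6 and 9 and clusters 7 and 10. Naive cluster 2 rested on 10 cells of 1 brain, at 2256.

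Klf2 followed another order. In metastasis brains it averaged 920.5 ± 514 in cluster 12, 860 ± 443 in cluster 6, 535 ± 20.4 in cluster 5 and 528 ± 46.3 in cluster 3, and each neighbour down to cluster 2 lay within the spread of the next. The choroid plexus-like cluster 9 was lowest at 60.0 ± 11. In naive brains cluster 6 (3312 ± 352) and cluster 12 (2943 ± 98.3) stood above the other clusters with 2 brains, among which clusters 11 and 10 had 586 ± 41.8 and 584 ± 90.1, and clusters 7 and 9 had 50.6 ± 2.37 and 22.7 ± 4.22. Jund in metastasis brains ran from 1822 ± 199 in cluster 12 and 1114 ± 56.6 in cluster 6 down to 425 ± 52.4 in cluster 5, and all clusters after the first 2 lay within the spread of the next. In the large clusters 0, 1, 3 and 4 of metastasis brains, mean Jund (524 to 603) and Klf2 (264 to 528) were above Fos (30.1 to 45.8) and Egr1 (2.14 to 4.30), as CPM not scaled for transcript length.

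**Figure D1:**
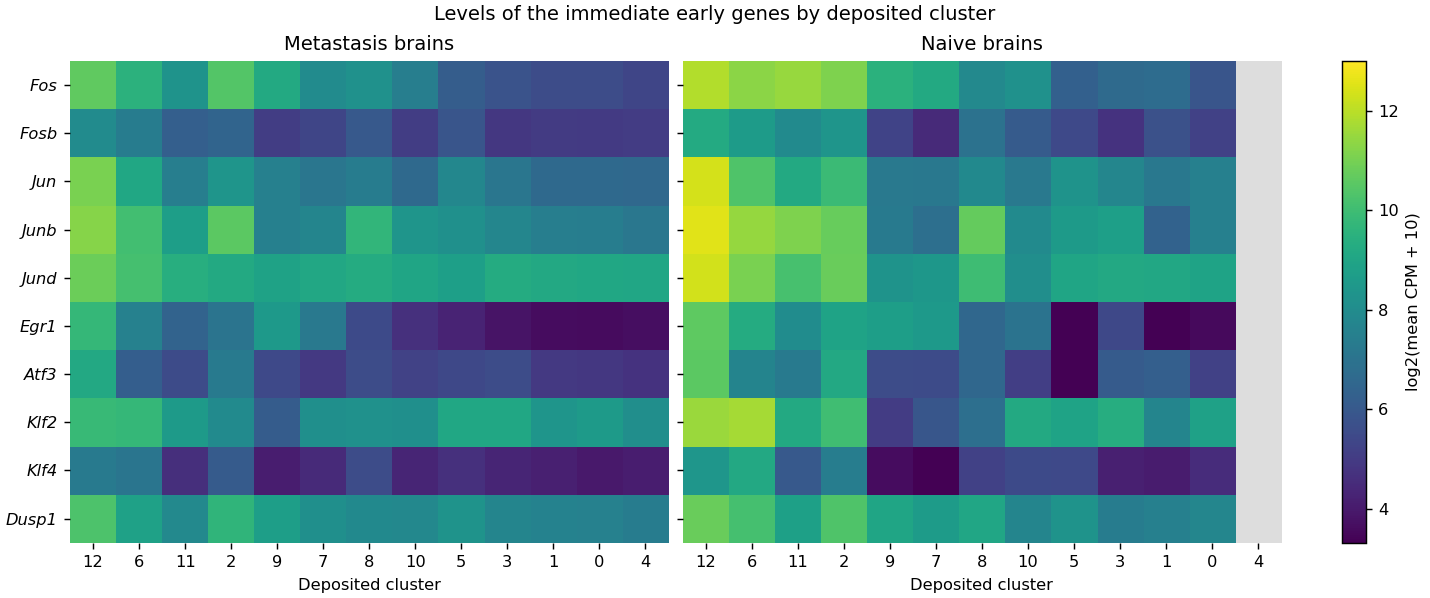
Mean level of each gene (rows) in each deposited cluster (columns), as the log2 of mean CPM plus 10, in metastasis brains (left) and naive brains (right). Grey marks a cluster with fewer than 10 cells in every brain of the condition. Cluster 12 is brightest for every gene in metastasis brains, and the large clusters 0, 1, 3 and 4 are dark for Egr1, at 2.14 to 4.30 CPM.

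Over the 46 sums of a brain and a cluster with at least 10 cells, and among 2789 genes with a mean of at least 50 CPM, the genes most like Fos by Pearson's r of log2(CPM + 10) were Cd81 (0.90), a tetraspanin, Xist (0.89), the X-inactivation RNA, and Zfp36 (0.86), an RNA-binding protein of the same early response. Those most like Klf2 were Gatm (0.81), an enzyme of creatine synthesis, Rhob (0.80), a small GTPase, and Adam15 (0.80), a metalloprotease. Among those most like Jund were Ier2 (0.87), a nuclear early response protein, and Mef2c (0.80), a MEF2 factor. Among the members themselves Fos was closest to Egr1 (0.92) and far from Klf2 (0.25). The sums share brains, depth and library, so these values describe the profiles and carry no test.

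In the endothelial-like cluster 6 all 10 genes fell with metastases in the sum over all its cells. The test was edgeR's quasi-likelihood fit on UMIs summed per brain, with Benjamini-Hochberg adjustment over 4539 genes, of which 5.24% fell and 2.34% rose. Klf4 fell most, by 2.16 on the log2 scale (SE 0.29, adjusted p = 0.00756), with 157 and 94.3 CPM in metastasis brains, against 619 and 509 in naive brains. Klf2 had 1173 and 547 in metastasis brains, against 3561 and 3063 in naive brains, and fell by 1.93 (SE 0.31, adjusted p = 0.0104). Both flow-responsive factors were low in both metastasis brains, with no overlap between the groups. Fos had 819 and 669 in metastasis brains, against 2797 and 2227 in naive brains (log2 change -1.75, SE 0.21, adjusted p = 0.00756). Junb had 1143 and 997 in metastasis brains, against 3271 and 2354 in naive brains (log2 change -1.39, SE 0.21, adjusted p = 0.00986).

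Egr1 had 206 and 158 CPM in metastasis brains of cluster 6, against 717 and 491 in naive brains (log2 change -1.73). The other AP-1 genes moved less, with log2 changes of -1.29 for Fosb, -1.24 for Jun and -0.90 for Jund. Jund, the smallest change, still separated the groups, at 1154 and 1074 in metastasis brains and 2356 and 1827 in naive brains. Atf3 and Dusp1 fell by 1.65 and 1.30 on the log2 scale. The groups did not overlap for any of the 10 genes, and they did not overlap for 56.8% of all genes tested in this cluster.

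The endothelial markers moved with these genes. The 10 markers summed to 4954 and 4281 CPM in metastasis brains, against 11952 and 9134 in naive brains, and all 10 were detected. The 50 genes that led the large clusters 0, 1, 3 and 4 stood at 68.3% and 54.9% of their share in those clusters in metastasis brains, against 28.0% and 33.4% in naive brains. Cells with more than 50% of that share were 37 of 155 and 25 of 125 in metastasis brains and held 64.8% and 44.8% of the UMIs of the cluster, with medians of 8457 and 5973 UMIs. In naive brains they were 24 of 155 and 16 of 98 cells, held 13.2% and 17.5% of the UMIs, and had medians of 620 and 693. In a sum over cells, fewer cells of a type and less RNA of a gene per cell cannot be told apart.

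In the cells of cluster 6 in which endothelial markers made up at least 0.5% of UMIs, none of the 10 genes passed the test. This subset was chosen after seeing the data and held 107 and 56 cells of metastasis brains, against 121 and 68 of naive brains, with marker sums of 17407 and 11844, against 15895 and 15348. None of 2031 genes passed there in either direction by edgeR (0%), and 156 had an unadjusted p under 0.05. Fos had 2596 and 882 CPM in metastasis brains, against 3018 and 2483 in naive brains (log2 change -0.64, 95% interval -1.43 to 0.15, adjusted p = 0.779). Klf2 had 3594 and 1041, against 4292 and 4886 (log2 change -0.96, interval -1.82 to -0.10, adjusted p = 0.641), and Klf4 had 463 and 238, against 750.0 and 833 (log2 change -1.14, interval -1.80 to -0.48, adjusted p = 0.515). For Klf2, Klf4 and Atf3 the groups still did not overlap, as for 36.7% of all genes tested. The metastasis brains differed from each other here: the 10 genes summed to 17870.1 in metastasis brain 1 and 6948 in metastasis brain 2, against 19158 and 17287 in naive brains. Leaving out metastasis brain 2 or naive brain 1 from the sums over all cells left 3 and 6 of the 10 genes past the threshold, where 0.788% and 2.65% of all genes fell. Cells thinned to 500 UMIs left 0 of 10, where 0% of 1271 genes fell by edgeR.

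**Figure D2:**
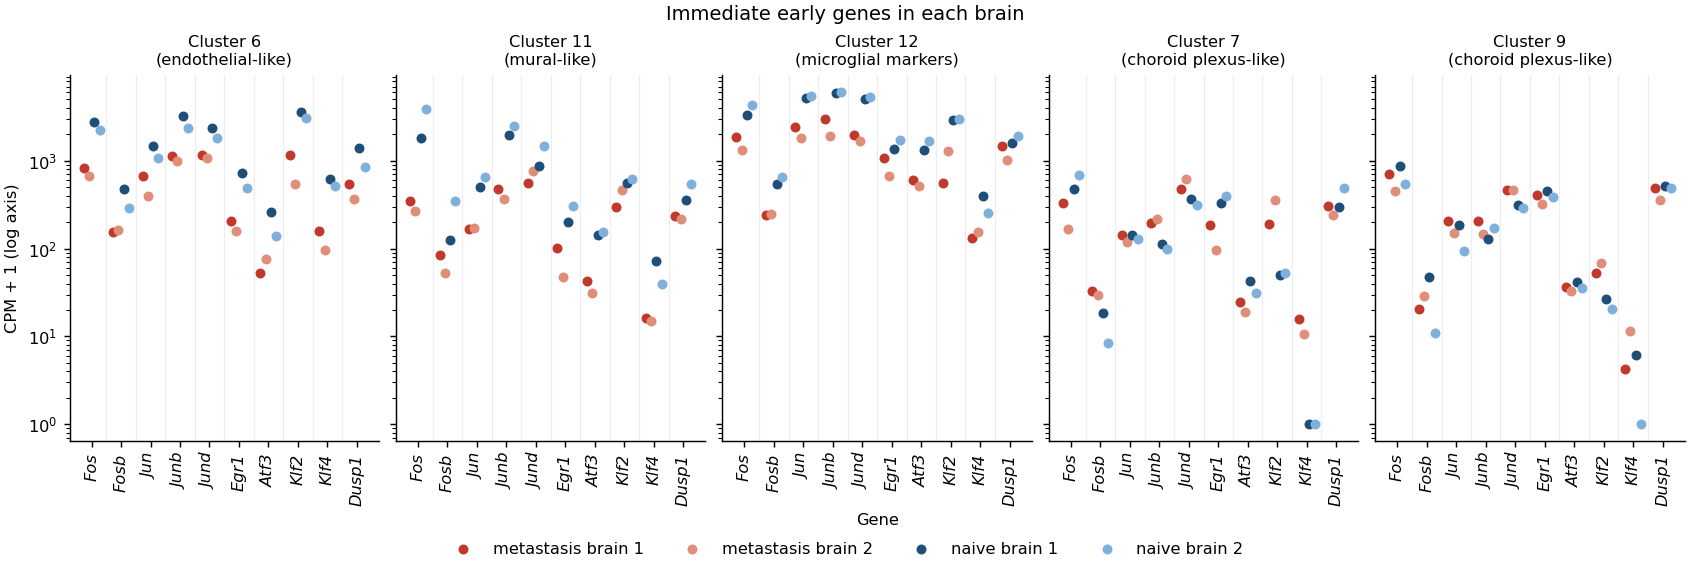
CPM plus 1 (log axis) of each gene in each brain (points, metastasis left of naive) for 5 clusters. In cluster 6 both metastasis brains lie below both naive brains for every gene, and in cluster 7 Klf2 is higher in metastasis brains, at 189 and 359 against 49.0 and 52.3.

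In the sum over all cells of the mural-like cluster 11, 8 of the 9 genes tested fell with metastases, where 12.3% of 2620 genes fell and 3.82% rose. Over both groups the cluster gathers pericyte and smooth muscle genes. With RLE scaling the all-gene split was 142 higher and 325 lower, and with no scaling 195 and 325, against 100 and 322 here. Fos had 347 and 268 CPM in metastasis brains, against 1812 and 3922 in naive brains (log2 change -3.25, SE 0.29, adjusted p = 1.83e-08 by edgeR). Junb had 478 and 363, against 1973 and 2499 (log2 change -2.49, SE 0.24, adjusted p = 4.4e-08). Fosb, Jun, Egr1 and Atf3 fell by 1.73, 1.82, 1.85 and 2.16 on the log2 scale, and Jund and Dusp1 by 0.81 and 1.02. Klf2 did not pass, with 294 and 464 in metastasis brains and 556 and 615 in naive brains (log2 change -0.68, interval -1.28 to -0.09, adjusted p = 0.139). Klf4 was below the filter on low counts.

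Mural markers summed to 2588 and 1987 CPM in metastasis brains, against 14475 and 26182 in naive brains. The 50 genes of the large clusters stood at 95.3% and 101.7% of their share there in metastasis brains, against 50.6% and 26.1% in naive brains, and the median cell had 9974 and 10370 UMIs, against 814 and 871. Cells with more than 50% of that share were 21 of 27 and 31 of 37 in metastasis brains and held 97.5% and 97.8% of the UMIs. In naive brains they were 3 of 48 and 2 of 27 cells and held 32.9% and 4.80%. The name mural-like thus fits the naive sums better than the metastasis sums. Mitochondrial genes made up 1.58% and 1.33% of the UMIs of the median cell in metastasis brains, against 5.05% and 5.32% in naive brains, and their part in the result was not tested. Only 9 and 7 cells of metastasis brains had at least 0.5% mural markers, against 45 and 27 of naive brains, a subset chosen after seeing the data. In those cells 2 of 6 tested genes fell and none rose, where 9.8% of 398 genes fell and 2.76% rose. Fos had 993 and 1477, against 2522 and 3922 (log2 change -1.50, SE 0.33, adjusted p = 0.00997), and Junb had 1171 and 827, against 2708 and 2499 (log2 change -1.45, SE 0.30, adjusted p = 0.00696). The mural markers still differed in them, at 9329 and 15543, against 20600.5 and 26182. In cells with at most 50% of the large-cluster share, 6 per metastasis brain, Fos changed by -0.24 and Junb by -0.23 on the log2 scale and 0 of 5 tested genes passed, where 0% of 263 genes fell and 0% rose by edgeR and 30 had an unadjusted p under 0.05. Leaving out a brain in turn left 3, 0, 5 and 3 lower genes (metastasis 1, metastasis 2, naive 1, naive 2), where 8.92%, 0%, 4.06% and 4.74% of all genes fell. DESeq2 called 3 lower, where 1.14% of 12099 genes fell.

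In cluster 12, 7 of the 10 genes fell with metastases, where 4.04% of 989 genes fell and 1.82% rose. With no scaling the all-gene split was 29 higher and 32 lower, against 18 and 40 here. Jund had 1963 and 1681 CPM in metastasis brains, against 5051 and 5356 in naive brains (log2 change -1.67, SE 0.35, adjusted p = 0.0193 by edgeR). Jun had 2414 and 1834, against 5227 and 5478 (log2 change -1.49, SE 0.35, adjusted p = 0.0279). Junb had 2971 and 1895, against 5923 and 6049 (log2 change -1.45, SE 0.36, adjusted p = 0.0294). For all 3 Jun-family genes both metastasis brains lay below both naive brains, and the groups did not overlap in either direction for 60.9% of genes tested here. Fos had 1857 and 1315, against 3281 and 4299.7 (log2 change -1.42, adjusted p = 0.031), and Fosb 239 and 245, against 538 and 656 (log2 change -1.45, adjusted p = 0.0463).

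Klf2 had 557 and 1284 CPM in metastasis brains of cluster 12, against 2873 and 3012 in naive brains (log2 change -1.84, SE 0.40, adjusted p = 0.0218). Klf2 restrains inflammatory gene expression in myeloid cells, as background. Atf3 had 610.1 and 519.7, against 1325 and 1676 (log2 change -1.56, SE 0.34, adjusted p = 0.0216). Egr1, Klf4 and Dusp1 did not pass, with log2 changes of -0.98, -1.35 and -0.67 and adjusted p of 0.0916, 0.105 and 0.224. Metastasis brains gave 26 and 15 cells of this cluster, against 60 and 33 of naive brains. The 50 large-cluster genes stood at 25.032% and 48.026% of their share in the large clusters, against 20.18% and 18.506%. In metastasis brain 2, 2 of 15 cells had more than 50% of that share and held 51.394% of the UMIs. The 10 genes summed to 3807 CPM in those 2 and 17799 in the other cells, against 27837 and 30390 in naive cells of at most 50%. In cells of at most 50% only Jund passed (log2 change -1.42, adjusted p = 0.0393 by edgeR), where 4 of 954 genes fell.

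Microglial markers in cluster 12 summed to 7321 and 4035 CPM in metastasis brains, against 14607 and 13166 in naive brains, and monocyte or macrophage markers to 10584 and 2140, against 5329 and 4858. Neutrophil markers stood at 53.1 and 91.7 in metastasis brains, against 621 and 33292 in naive brains. Without cells of over 1% neutrophil markers, 8 of the 10 genes fell, where 11.8% of 710 genes fell. In the cells with at least 0.5% microglial markers (21 and 9 of metastasis brains, against 55 and 28 of naive brains, a subset chosen after seeing the data), 3 of the 10 genes fell and none rose, where 1.74% of 864 genes fell and 1.04% rose. The microglial markers still differed in those cells, at 8366 and 9383 in metastasis brains, against 14996 and 14756 in naive brains. Neutrophil markers stood at 66.7 and 211 in them, against 603 and 18842. The part of either in these calls was not tested. Jund had 2067 and 3057 there, against 5110.3 and 5955 (log2 change -1.35, SE 0.25, adjusted p = 0.0148). Junb had 3099.8 and 3479, against 5991 and 6848 (log2 change -1.17, SE 0.23, adjusted p = 0.0184). Klf2 had 567 and 1476, against 2890.1 and 3319 (log2 change -2.0, SE 0.35, adjusted p = 0.0141). Fos (log2 change -1.03, interval -1.55 to -0.52) and Jun (-0.89, interval -1.46 to -0.33) had adjusted p of 0.0617 and 0.115 there. Leaving out either naive brain from the sums over all cells left 0 of the 10 genes past the threshold by edgeR, where 0.761% (without naive brain 1) and 0% (without naive brain 2) of 788 genes fell.

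**Figure D3:**
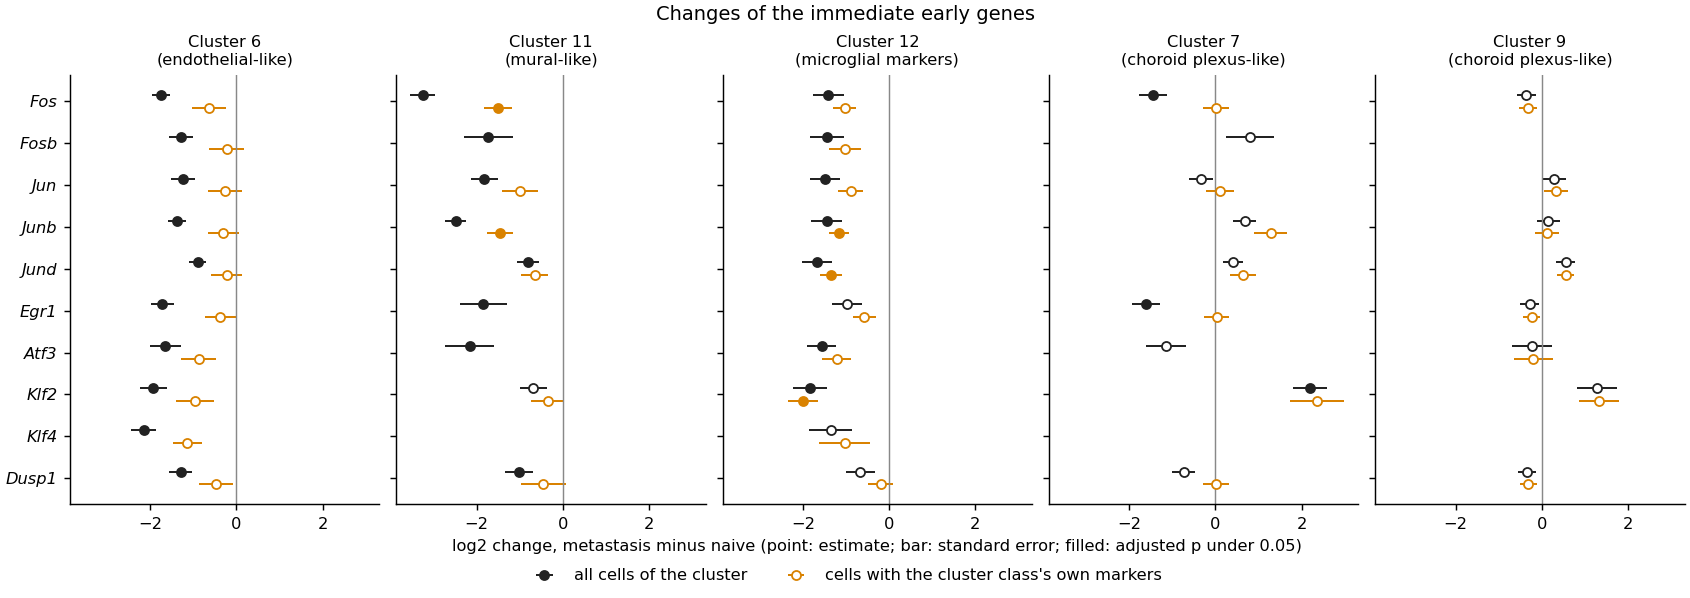
Log2 change of each gene, metastasis minus naive, with its standard error, for 5 clusters, over all cells (black) and over cells with the own markers of the cluster's class (orange). Filled points passed an adjusted p of 0.05. In cluster 6 the orange points are all open and closer to 0, and in cluster 12 those of Junb, Jund and Klf2 stay filled.

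The choroid plexus-like cluster 7, epithelium that secretes cerebrospinal fluid, had changes in both directions. Of 9 genes tested, Fos and Egr1 fell and Klf2 rose, where 16.9% of 5963 genes fell and 14.2% rose. With no scaling beyond the total, 1386 genes were higher and 799 lower, against 848 and 1008 here. Klf2 had 189 and 359 CPM in metastasis brains, against 49.0 and 52.3 in naive brains (log2 change 2.19, SE 0.39, adjusted p = 0.00408 by edgeR). Fos had 329 and 165, against 476 and 679.9 (log2 change -1.46, SE 0.32, adjusted p = 0.00914). Egr1 had 186 and 96.1, against 329 and 396 (log2 change -1.61, SE 0.32, adjusted p = 0.00571). Junb had 193 and 213, against 112 and 97.1, and Jund 470.1 and 623, against 371 and 314, and neither passed (log2 changes 0.68 and 0.41, adjusted p = 0.0684 and 0.191). Klf4 had 11 and 11 UMIs in metastasis brains, against 0 of 285975 and 0 of 133835 UMIs in naive brains. The metastasis values were 14.6 and 9.78 CPM, and 0 of 419810 UMIs over both naive brains allows up to 7.15 CPM (3 counts over the group, counting error only). Klf4 was below the filter on low counts in the fit of this cluster and was not tested there.

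Choroid plexus markers in cluster 7 summed to 128438 and 76361 CPM in metastasis brains, against 284595 and 269406 in naive brains, and the 50 large-cluster genes stood at 68.6% and 84.0% of their share in the large clusters, against 23.4% and 21.3%. Cells with more than 50% of that share were 67 of 153 and 87 of 148 in metastasis brains and held 73.3% and 86.7% of the UMIs. In naive brains they were 23 of 135 and 6 of 62 cells and held 10.4% and 10.5%. Mitochondrial genes made up 4.79% and 1.74% of the UMIs of the median cell in metastasis brains, against 8.94% and 12.9% in naive brains. With cells of at most 10% mitochondrial UMIs (108 and 128 of metastasis brains, against 74 and 18 of naive brains), Egr1 fell (log2 change -1.64, adjusted p = 0.0204 by edgeR) and Klf2 rose (1.71, adjusted p = 0.0222). There Fos had a log2 change of -0.93 (adjusted p = 0.103), and 4.88% of 4860 genes fell and 2.55% rose. In those large clusters of metastasis brains Klf2 stood at 264 to 528 CPM, above naive cluster 7, and Fos and Egr1 at 30.1 to 45.8 and 2.14 to 4.30, below it. In the cells of cluster 7 with at least 10% choroid plexus markers (94 and 65 of metastasis brains, against 109 and 53 of naive brains, chosen after seeing the data), 0 of 7 tested genes passed, where 0.0658% of 3041 genes fell and 1.74% rose. Fos had 740.3 and 497 in metastasis brains, against 529.7 and 689 in naive brains (log2 change 0.01, interval -0.58 to 0.59). Egr1 had 425 and 338, against 359.7 and 375 (log2 change 0.03, interval -0.53 to 0.59). Klf2 had 56.9 and 242, against 27.7 and 26.2 (log2 change 2.36, SE 0.63, adjusted p = 0.0655). Junb had 175 and 325, against 111 and 78.5 (log2 change 1.28, interval 0.54 to 2.03, adjusted p = 0.0904). The large-cluster share in these cells was 27.8% and 39.7%, against 15.5% and 12.3%, and its part in the Klf2 values was not tested.

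In cluster 9, the choroid plexus-like cluster with more UMIs per cell, none of the 8 genes tested passed, where 0.461% of 3473 genes fell and 3.83% rose, and 578 genes had an unadjusted p under 0.05. Klf2 had 52.3 and 67.8 CPM in metastasis brains, against 25.7 and 19.7 in naive brains (log2 change 1.29, SE 0.47, adjusted p = 0.129 by edgeR). Jund had 469 and 468, against 309 and 291 (log2 change 0.56, interval 0.13 to 0.98, adjusted p = 0.166). For both the groups did not overlap, as for 47.7% of genes tested. Fos had 711 and 451, against 869 and 548 (log2 change -0.36, interval -0.79 to 0.07), and Egr1 404 and 324, against 452 and 385 (log2 change -0.28, interval -0.71 to 0.14). Choroid plexus markers were closer between groups here than in cluster 7, at 364681 and 328782 in metastasis brains, against 400388 and 417780 in naive brains, and the large-cluster share was 20.1% and 27.7%, against 12.1% and 13.8%. In cells with at least 10% choroid plexus markers 0 of 8 genes passed, where 0.274% of 3282 genes fell and 3.08% rose and 522 had an unadjusted p under 0.05.

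**Figure D4:**
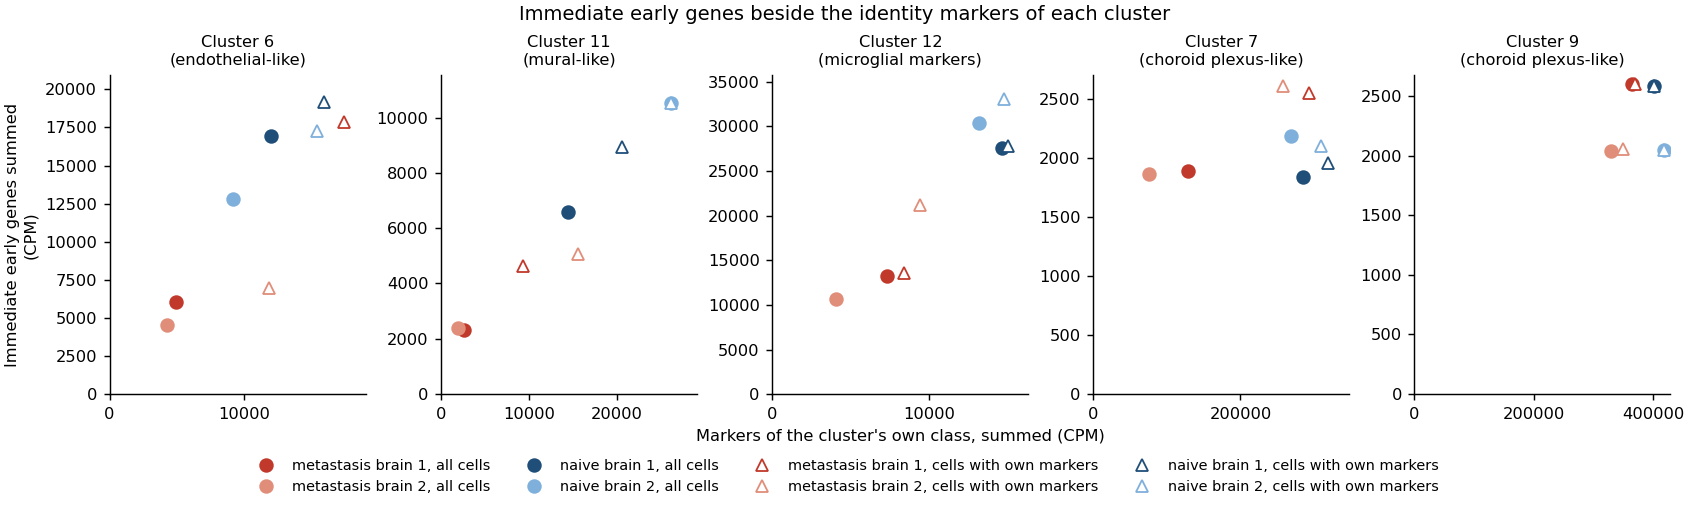
The 10 immediate early genes summed (vertical) against the markers of each cluster's own class summed (horizontal), both in CPM and from 0, for each brain. Circles are all cells of a cluster and open triangles the cells with own markers. In clusters 6, 11 and 12 the metastasis circles lie at the lower left. In cluster 6 the triangle of metastasis brain 1 lies beside the naive ones, at 17870.1 CPM.

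The other tested clusters gave 1 call. In cluster 10 Egr1 had 15.4 and 15.7 CPM in metastasis brains, against 99.1 and 139 in naive brains (log2 change -2.87, SE 0.72, adjusted p = 0.0389 by edgeR), where 2.06% of 2666 genes fell and 0.375% rose. The naive values rest on 4 and 3 UMIs, and choroid plexus markers stood at 1744 and 5749 in metastasis brains of this cluster, against 49983 and 85743 in naive brains. Their part in the Egr1 value was not tested, and the call was lost with RLE scaling and by DESeq2. In cluster 8 none of 9 genes passed, where 0.326% of 3373 genes fell and 0.356% rose, and 493 had an unadjusted p under 0.05. Junb had 822 and 818 in metastasis brains of cluster 8, against 1741 and 1595 in naive brains (log2 change -0.74, interval -1.16 to -0.31, adjusted p = 0.15), and each naive brain gave 18 cells. In cluster 8 the all-gene split was 12 higher and 11 lower, and 3 and 9 with no scaling. In the large cluster 1 none of 10 genes passed, where 0.031% of 9686 genes fell and 0.031% rose and 636 had an unadjusted p under 0.05. There Junb had 189 and 148, against 54.3 and 89.2 (log2 change 1.64, interval 0.69 to 2.59, adjusted p = 0.273), from 13 and 11 naive cells.

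To weigh cells alike, every cell was thinned to 500 UMIs, and none was left out because all had at least that many. In cluster 12 the median cell carried 8.5 and 9 UMIs of the 10 genes in metastasis brains, against 11 and 13 in naive brains, and among cells with microglial markers 9 and 9, against 12 and 13.5. In cluster 6 the medians were 6 and 2, against 7 and 6, and among cells with endothelial markers 8 and 5, against 8 and 8. Metastasis brain 1 thus matched the naive brains in that subset and metastasis brain 2 did not. In cluster 11 they were 1 and 1, against 3 and 3, and among the 9 and 7 cells with mural markers 2 and 4, against 3 and 3. In clusters 7 and 9 every median was 0 or 1. Fits on sums of thinned cells called 3 of 3 tested genes lower in cluster 11, where 26.2% of 244 genes fell, and 0 of 8 in cluster 12, where 1.37% of 219 genes fell.

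**Figure D5:**
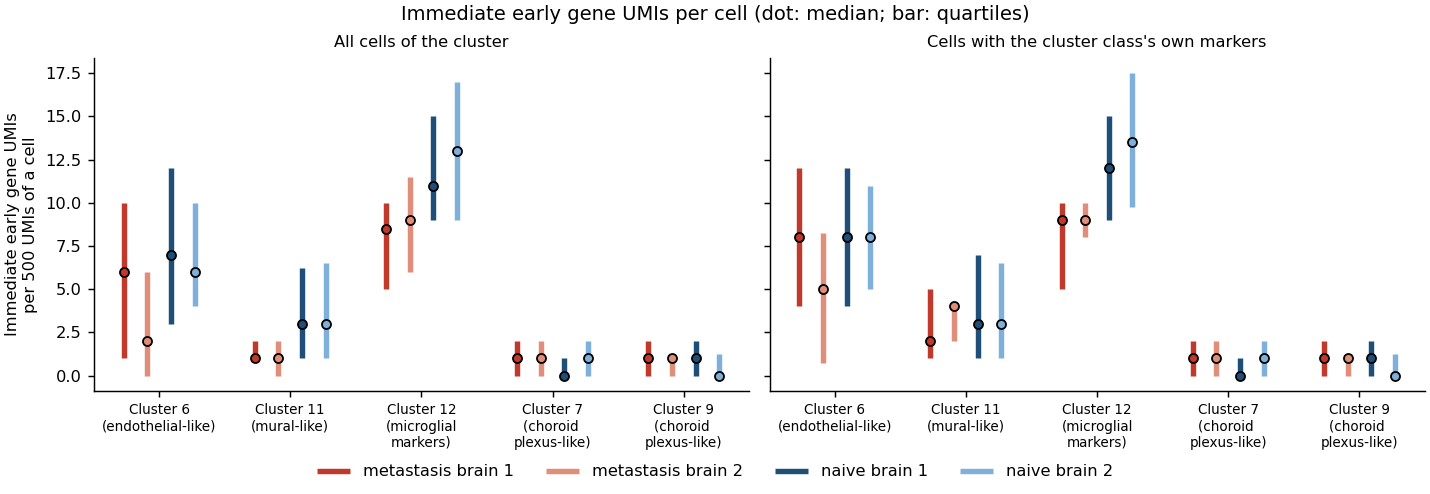
UMIs of the 10 genes per 500 UMIs of a cell, by brain and cluster, for all cells (left) and for cells with the own markers of the cluster's class (right). Dots are medians and bars quartiles over cells. In cluster 12 the metastasis medians lie below the naive ones in both panels, and in cluster 6 only metastasis brain 2 does in the right panel, at 5 against 8 in the other brains.

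The changes were then compared between clusters in 1 edgeR fit over all 8 tested clusters with the brain as a block. The change of Klf2 in cluster 6 lay below that in cluster 7 (difference -3.91, SE 0.42, adjusted p = 1.1e-12), where 3.12% of 6795 genes differed, and its change in cluster 12 lay below that in cluster 7 (difference -4.01, SE 0.46, adjusted p = 3.94e-11), where 1.35% differed. Against cluster 9 the differences were -3.27 for cluster 6 (adjusted p = 5.82e-05, where 0.795% of genes differed) and -3.37 for cluster 12 (adjusted p = 7.64e-05, where 0.633% differed). In the cells with own markers the Klf2 difference was -3.10 between clusters 6 and 7 (SE 0.59, adjusted p = 0.000512, where 0.255% of 3914 genes differed) and -4.55 between clusters 12 and 7 (SE 0.63, adjusted p = 1.54e-09, where 0.46% differed). Klf4 also differed between clusters 6 and 7 (adjusted p = 0.00338), a value that rests on counts of 0 in both naive brains of cluster 7 and so has no interpretable size. In the sums over all cells Klf2 was the only member that passed in opposite directions, higher in cluster 7 and lower in clusters 6 and 12.

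Of the AP-1 genes, Junb and Jund changed more negatively in clusters 6 and 12 than in both choroid plexus-like clusters. For Junb the differences were -1.90 (6 minus 7), -1.60 (6 minus 9), -2.11 (12 minus 7) and -1.80 (12 minus 9), and for Jund -1.11, -1.52, -2.01 and -2.43 in the same order, with adjusted p from 1.68e-07 to 0.0225. Fos changed more negatively in cluster 6 than in cluster 9 (difference -1.45, SE 0.32, adjusted p = 0.00297) and in cluster 11 than in clusters 7 and 9 (differences -1.26 and -2.60, adjusted p = 0.0417 and 7.69e-09), where 1.32% and 1.6% of genes differed. Within the choroid plexus-like pair, Fos and Egr1 changed more negatively in cluster 7 than in cluster 9 (differences -1.34 and -1.59, adjusted p = 0.00359 and 0.000284). This pair was compared over all cells only, and its share over all genes is not given. Whether Fos and Egr1 stand out there from other genes is thus not shown. In the separate fits 16.9% of genes fell and 14.2% rose in cluster 7, against 0.461% and 3.83% in cluster 9. In cells with own markers the order of Fos and Egr1 was the other way. There Fos changed by 0.01 in cluster 7 and -0.31 in cluster 9, and Egr1 by 0.03 and -0.23, with no test of the difference. Klf2 and Fos changed more positively in cluster 8 than in cluster 6 (differences 3.89 and 2.74, adjusted p = 2.43e-05 and 0.00155, where 0.442% of genes differed) and than in cluster 12 (4.0 and 2.52, adjusted p = 1.85e-05 and 0.00773, where 0.648% differed), and naive brain 1 had 0 Klf2 UMIs in cluster 8. In the cells with own markers, Jund kept its differences of clusters 12 and 7 (-2.21, adjusted p = 0.000514) and 12 and 9 (-2.25, adjusted p = 0.000437, where 0.383% of genes differed), and Junb those of clusters 12 and 7 (-2.68, adjusted p = 0.000108) and 11 and 7 (-2.61, adjusted p = 0.00269, where 0.0766% of genes differed). There 0 members differed between clusters 6 and 9, where 0.0511% of genes did, nor between clusters 11 and 9, where 0.0766% did.

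Other early genes were read from 4 lists chosen with earlier results of these data known. Of 52 further immediate early genes, 37 were tested in cluster 6 and 19 fell, with none higher and a median log2 change of -0.95, beside 0.01 over all genes, of which 5.24% fell. In cluster 11, 14 of 27 fell (median -1.72, beside 0.13), where 12.3% of all genes fell, and in cluster 12, 5 of 19 fell (median -0.87, beside -0.01), where 4.04% did. In cluster 7, 7 of 37 rose and 9 fell (median 0.25, beside 0.11), where 14.2% of all genes rose and 16.9% fell, and in cluster 9 none of 22 passed (median -0.03). In the cells with own markers 0 of 28 passed in cluster 6, 1 of 7 fell in cluster 11, 3 of 20 fell in cluster 12 and 0 of 21 passed in cluster 7. Over all genes of those cells 0% passed in cluster 6, 9.8% fell in cluster 11 and 1.74% fell in cluster 12. In cluster 7, 0.0658% of them fell and 1.74% rose. Of the heat shock genes, chaperones induced by tissue stress, 2 of 11 fell in cluster 6, 3 of 11 rose and 3 fell in cluster 7, 1 of 9 rose and 1 fell in cluster 11, 1 of 7 fell in cluster 12 and none of 10 passed in cluster 9. These counts stand beside 5.24% of all genes lower in cluster 6, 16.9% lower and 14.2% higher in cluster 7, 12.3% lower and 3.82% higher in cluster 11 and 4.04% lower in cluster 12.

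Named genes of these lists passed in 2 or more clusters. Btg2, an antiproliferative early gene, fell in clusters 6, 7, 11 and 12 (log2 changes -1.74, -1.39, -3.07 and -1.41). In cells with own markers Btg2 passed in none of these (-0.48, 0.06, -1.28 and -0.80, adjusted p = 0.779, 0.959, 0.0522 and 0.153 by edgeR). Ier2, a nuclear early response protein, fell in clusters 6, 11 and 12 (-1.54, -1.60 and -1.86), and in cluster 12 it also fell in cells with microglial markers (-1.65, SE 0.30, adjusted p = 0.0141 by edgeR). Cyr61, a matrix protein induced by growth factors, the differentiation inhibitors Id1 and Id3, the RNA-binding protein Zfp36l1 and the small heat shock protein Hspb1 fell in clusters 6, 7 and 11. Sgk1, a glucocorticoid-induced kinase, fell in clusters 6, 7 and 10. The nuclear receptor Nr4a1, the zinc-finger factor Klf9, the phosphatase subunit Ppp1r15a, Zfp36 and Mef2c fell in clusters 6 and 11, and Id2, the kinase Plk2 and the CREB-family factor Crem in clusters 6 and 7. In cells with own markers, none of the genes named here that were tested passed in clusters 6 or 7. In cluster 11 only Hspb1 did (log2 change -1.14, SE 0.33, adjusted p = 0.0394 by edgeR).

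Klf6, Ier5 and Rhob also passed in opposite directions between clusters, but for them no test of the difference is reported. Rhob rose in cluster 7 (log2 change 1.60, adjusted p = 0.0035) and fell in cluster 12 (-1.66, adjusted p = 0.0193). Klf6, a zinc-finger factor, rose in cluster 7 (1.5, adjusted p = 0.0184) and fell in clusters 6 (-0.95, adjusted p = 0.0411) and 12 (-1.54, adjusted p = 0.0216). Ier5 rose in cluster 7 (1.37, adjusted p = 0.0264) and fell in cluster 12 (-1.16, adjusted p = 0.0466). In cells with own markers Rhob and Klf6 fell in cluster 12 (-1.53 and -1.33, adjusted p = 0.0141 and 0.03), while their values in cluster 7 were 1.31 and 0.78 (adjusted p = 0.111 and 0.426). Ier5 passed in neither, at 1.47 in cluster 7 and -0.65 in cluster 12 (adjusted p = 0.125 and 0.287 by edgeR). Rhob, Klf6 and Ier5 averaged 413, 121 and 98.9 CPM after TMM in metastasis brains of the large cluster 1. In naive brains of cluster 7 they averaged 95.2, 28.8 and 28.8, and the part of large-cluster RNA was not tested. Of 24 upstream regulators (the serum response, CREB, MAP kinase and MEF2 genes), 3 of 14 fell in cluster 6, 3 of 14 in cluster 7, 1 of 5 in cluster 11 and none of 3 in cluster 12, where 5.24%, 16.9%, 12.3% and 4.04% of all genes fell. Of 14 genes tied to Klf2 and Klf4, 4 of 9 fell in cluster 6, where 5.24% of all genes fell, with a median log2 change of -1.24. In cells with endothelial markers 0 of 9 passed (median -0.29), where 0 of 2031 genes passed.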

How the data were processed

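RNA was counted in 12421 cells of 4 brains pooled in 1 10x Chromium 3′ v2 library, per the labels' protocols. The authors deposited whole-number UMI counts for 31053 genes, with no normalisation that the values show. Per the submitters' processing notes, Cell Ranger 3.0.2, Seurat 3.0.1 and the mm10 build were named, without an order of steps. The deposited cell table gives each cell's hashing antibody, condition, cluster number and percent of mitochondrial UMIs, computed by the authors. The design text speaks of 6 pooled samples and the files hold 4 hashing antibodies, so brains are named by hashing antibody. Each cell had 1 hashing call and no fewer than 500 UMIs, and mitochondrial UMIs reached 24.9% in the highest cell. All barcodes were distinct, and no doublet caller or correction for free RNA was run.

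UMI counts were summed per brain and deposited cluster, and a cluster was tested where each of the 4 brains held at least 10 cells. The test of each gene was the quasi-likelihood test of edgeR 4.0.16, run under R 4.3.3. Sums were scaled by TMM, low genes were removed by filterByExpr, and p was adjusted by Benjamini-Hochberg over every gene tested, with a threshold of 0.05. The fits were tested on simulated counts. Values per brain are CPM without scaling, and log2 changes are metastasis minus naive after TMM. Changes were compared between clusters in 1 edgeR fit with brain as a block. Intervals are 95% and use the SE. Fold changes of genes at 0 depend on the prior count. Markers named a cluster when 3 were at least 1 log2 unit above other cells and at 50 CPM. Limits from counts of 0 cover counting error only. The members and lists were chosen with earlier results of these data known. Named list genes passed in the same direction in at least 2 clusters, or in opposite directions in 2, up to 20. 1 gene that the rule on likeness to Jund names is not reported here. Alternatives were RLE or no scaling, no low-count filter, DESeq2 1.42.0, leaving out each brain, cells thinned to 500 UMIs, limits on mitochondrial, neutrophil and other markers, and other cell minimums. Subsets by own markers and by large-cluster genes were chosen after seeing the data. Sequences are from RefSeq and cover 250 bases before a start. Antibody tags were used only to describe clusters.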

Additional observations from a re-analysis of the deposited data

Results flagged for a closer look

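Klf2 passed in opposite directions in 2 pairs of clusters, and the difference itself passed the test. The genes were chosen with earlier results of these data known, so the p-values are not independent of that choice. Between clusters 6 and 7 the difference of its changes was -3.91 (SE 0.42, adjusted p = 1.1e-12 by edgeR, lower in cluster 6 and higher in cluster 7). Between clusters 12 and 7 it was -4.01 (SE 0.46, adjusted p = 3.94e-11). In the direction of each cluster, 2 of 2 metastasis brains lay below both naive brains in clusters 6 and 12 and above both in cluster 7. The groups did not overlap for 56.8% of all genes tested in cluster 6, 60.9% in cluster 12 and 71.7% in cluster 7. Klf2 in cluster 7 had 189 and 359 CPM in metastasis brains, against 49.0 and 52.3 in naive brains, and the 50 genes of the large clusters moved with it. Their part was not tested.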

How the results depend on the processing

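Of 889 member changes recomputed, 702 kept direction and call, 136 lost the call, 14 gained one and 37 turned direction. Of 700 differences between clusters, 583 kept both, 62 lost the call, 20 gained one and 35 turned. Of the turned values only Fos and Egr1 in cluster 7 had passed the test before, and none passed after turning. These log2 values, turned, were as follows. At the 50% large-cluster share Fos, Egr1, Jun and Dusp1 in cluster 7 were at 0.43, 0.41, 0.48 and 0.29, Egr1 in 9 at 0.0067 and Klf2 in 11 at 0.32. With own markers Fos, Egr1, Jun and Dusp1 in 7 were at 0.0065, 0.0253, 0.0956 and 0.0169. Thinned, Jun was at 1.18 in 1 and 0.12 in 7, Egr1 at 0.38 in 9 and 0.0008 in 12, Dusp1 at 0.18 and Jund at -0.42 in 9, and at most 10% mitochondrial Jun was at 0.16 in 7. With no low-count filter Jun was at 0.0745 in 10 and 0.21 in 8 and Jund at 0.0198 in 8. In cluster 1 Jund was at -0.0294 with no scaling, Egr1 at -0.47 by DESeq2 and Klf4 at -0.0825 (DESeq2), -0.0472 (RLE) and -0.17 (no scaling). Differences with no scaling were -0.45 (Dusp1) and -0.35 (Egr1) for 11 minus 7, -0.0398 (Dusp1) and -0.0188 (Fos) for 12 minus 7, -0.39 (Egr1) for 6 minus 7, and -0.63 (Dusp1) and -0.41 (Egr1) for 8 minus 12, or -0.32 and -0.12 with RLE. With own markers they were -0.31 (Dusp1) and -0.96 (Egr1) for 11 minus 7, -0.44 (Dusp1), -0.81 (Egr1) and -1.24 (Fos) for 12 minus 7, -0.26 (Egr1) for 6 minus 7 and 0.21 (Fosb) for 6 minus 9, and at most 1% neutrophil markers -0.0857 (Dusp1) for 12 minus 7. Leaving out each brain gave ranges across 0 in cluster 1 for Atf3 (-2.11 to 0.78), Fos (-1.79 to 1.68), Jun (-0.77 to 0.61), Jund (-0.36 to 0.69) and Klf4 (-0.50 to 8.76), in 8 for Jun (-0.15 to 0.0647), in 9 for Jun (-0.13 to 0.78) and Junb (-0.15 to 0.42), and in 10 for Jun (-0.63 to 0.0305) and Dusp1 (-0.22 to 0.93). So it did for the differences 6 minus 7 of Atf3 (-0.89 to 0.0558), Dusp1 (-1.05 to 0.18), Egr1 (-0.28 to 0.35) and Fos (-0.49 to 0.25), 8 minus 6 of Atf3 (-0.14 to 2.07), 11 minus 7 of Dusp1 (-0.017 to 0.40), 11 minus 9 of Fosb (-2.94 to 0.11), 12 minus 7 of Dusp1 (-0.30 to 0.24) and Fos (-0.16 to 0.31), and 8 minus 12 of Dusp1 (-0.50 to 0.80) and Egr1 (-0.67 to 1.29). Calls depended on which cells entered and on the filter, the scaling and the method. The lower members of cluster 6 were 0 with cells thinned to 500 UMIs, at most 50% large-cluster share, own markers or no low-count filter, against 10. In those settings 0 of 1271, 0 of 2523, 0 of 2031 and 0 of 14632 genes rose or fell by edgeR. The lower members of cluster 11 were 3 of 10 by DESeq2, 3 of 3 thinned and 3 of 10 with no filter, against 8 of 9. There 138 of 12099, 64 of 244 and 206 of 12099 genes fell. With own markers they were 2 of 6 and at the 50% share 0 of 5, where 39 of 398 and 0 of 263 genes fell. The lower members of cluster 12 were 0 of 8 thinned, 1 of 10 at the 50% share and 3 of 10 with own markers, against 7 of 10. There 3 of 219, 4 of 954 and 15 of 864 genes fell. In cluster 7 the lower members were 1 of 8 at most 10% mitochondrial, where 237 of 4860 genes fell. They were 0 of 6 thinned, 0 of 6 at the 50% share and 0 of 7 with own markers, against 2 of 9. Under those last 3, 0 of 991, 0 of 2161 and 2 of 3041 genes fell. The higher members were 0 under those 3, where 0, 4 and 53 genes rose. With no filter or no scaling they were 3, against 1, where 1497 of 14550 and 1386 of 5963 genes rose. The 1 higher member was Klf2, which was below the low-count filter when thinned and at the 50% share. Its loss was thus tested only with own markers. In cluster 10 the lower were 0 by DESeq2, RLE or no scaling, no filter or at most 1% other markers and 2 at most 10% mitochondrial. All genes lower there were 23 of 12560 (DESeq2), 38 and 39 of 2666 (RLE, no scaling) and 40 of 12560 (no filter). They were 48 of 2635 at most 1% other markers and 44 of 2769 at most 10% mitochondrial. In cluster 1 thinned cells gave 1 higher member, where 97 of 3693 genes rose. A minimum of 20 cells left 4 clusters. The cause of these moves was not tested. Members whose change differed with own markers were 1 (6 minus 7), 0 (6 minus 9), 1 (11 minus 7), 0 (11 minus 9) and 2 (12 minus 9). With no scaling they were 7 (11 minus 7), 5 (12 minus 7, also at most 1% neutrophil markers) and 1 each (8 minus 6, 8 minus 12, also with RLE). Without the brain as replicate block the counts were 3 (6 minus 7), 3 (6 minus 9), 2 (11 minus 7), 3 (11 minus 9), 3 (12 minus 7), 4 (12 minus 9) and 1 each for 8 minus 6 and 8 minus 12. No paired analysis was possible because the hashing labels do not number brains within conditions. Of other early genes, own markers left 0 lower in cluster 6, 0 lower and 0 higher in 7, 1 lower in 11 and 3 lower in 12. Of heat shock genes they left 0 lower in 6, 0 lower and 0 higher in 7 and 0 higher in 11. Over all genes with own markers, 0% fell in 6, 0.0658% in 7, 9.8% in 11 and 1.74% in 12. In clusters 7 and 11, 1.74% and 2.76% rose. No scaling gave 1 higher of each list in cluster 9, and the neutrophil limit 2 lower heat shock genes in 12. Leaving out each brain gave 3 to 10 lower members in cluster 6 (3 without metastasis brain 2, 6 without naive brain 1), 0 to 5 in 11 (0 without metastasis brain 2), 0 to 9 in 12 (0 without either naive brain) and 0 to 1 in 10, and 0 to 1 higher in 8 and 10. Differing members were 2 to 4 (6 minus 7), 1 to 7 (6 minus 9), 1 to 2 (11 minus 7), 1 to 4 (12 minus 7), 2 to 5 (12 minus 9), 1 to 2 (8 minus 6) and 1 to 4 (8 minus 12). Other early genes were 4 to 17 lower in 6 (4 without metastasis brain 2), 5 to 10 lower and 4 to 9 higher in 7, 0 to 10 lower in 11 and 0 to 11 lower in 12. Heat shock genes were 0 to 1 lower in 6, 1 to 3 lower and 1 to 3 higher in 7, 0 to 1 lower and 0 to 3 higher in 11, 0 to 2 lower and 0 to 1 higher in 12, and 0 to 1 higher in 6 and 9. Counts of 0 in naive brains (Klf4 in cluster 7, and Klf2 in cluster 8 of naive brain 1) limit what those 2 values can show.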

Other observations

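Jund differed between the 2 metastasis brains in each of the large clusters. It had 421, 436, 483 and 409 CPM in metastasis brain 1 in clusters 0, 1, 3 and 4, and 637, 685, 723 and 639 in metastasis brain 2. Fos did not follow this order, with 40.1, 39.3, 49.1 and 33.3 in metastasis brain 1 and 34.0, 36.1, 42.5 and 26.9 in metastasis brain 2. These are 2 brains of 1 condition, and no test was made.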
